A study of Sus scrofa with 8 samples.

Results

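Complex I, or NADH:ubiquinone oxidoreductase, is the enzyme through which electrons from NADH enter the mitochondrial respiratory chain. Its L-shaped structure has a peripheral arm in the matrix, which oxidises NADH and passes electrons along iron-sulphur clusters to ubiquinone, and a membrane arm, which pumps protons. Conserved core subunits carry out the catalysis, accessory subunits surround and stabilise them, and assembly factors help to build the enzyme without remaining in it. Skeletal muscle holds more of it in oxidative fibres than in glycolytic ones. The genes described here are those whose symbol in the deposited gene table starts with NDUFA, NDUFB, NDUFC, NDUFS, NDUFV or NDUFAF followed by a number, with a mean of at least 1 FPKM (fragment counts scaled to gene length and to library size) over the libraries. All 41 genes with such a name passed, of 23235 genes in the table and 9821 at that level. The lowest means were those of NDUFAF5 (1.20 FPKM), NDUFAF4 (1.46 FPKM) and NDUFAF2 (1.73 FPKM), and no gene with such a name lay outside.

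The study sequenced poly(A) RNA of the longissimus dorsi, a large muscle of the back, in weaned Duroc x Landrace x Yorkshire piglets. Piglets aged 28 days at the start were randomised, 6 per group, and after 5 days of adaptation received 10 mL by gavage every day for 23 days. The melatonin group received melatonin, a hormone that the pineal gland releases at night, dissolved in saline at 5 mg per kg body weight, and the control group received saline alone. The table holds 4 melatonin and 4 control libraries with 53471667 to 60629098 counted fragments each, which were treated as separate piglets. Beyond the group the labels hold just a replicate number, so p-values measure only the spread between these samples, which may be technical. All 10 muscle fibre markers examined were present, with the skeletal actin gene ACTA1 at 49050 to 66370 FPKM after melatonin and 59380 to 74670 FPKM in controls. The table covers nuclear genes, and the mitochondrially encoded core subunits are not analysed here.

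By role, 6 of the 41 are core subunits, 25 are accessory subunits and 8 are assembly factors. NDUFA4 and NDUFA4L2 match the names but are kept apart, because NDUFA4 is now counted as a subunit of complex IV and NDUFA4L2 is its paralogue. A further 4 subunits have an Ensembl ID in place of a symbol and are named only in the description column: NDUFS7, a core subunit, and the accessory subunits NDUFV3, NDUFA12 and NDUFB3. They are given beside the 41 and not counted among them. The core subunit lowest in mean level was NDUFV2, at 22.3 FPKM. Mean levels of accessory subunits spanned 4.66 FPKM (NDUFB2) to 123 FPKM (NDUFB10), a 26.4-fold range. Assembly factors lay lower, from 1.20 FPKM (NDUFAF5) over a 10.9-fold range up to NDUFAF8, with a median of 2.69 FPKM, against medians of 74.5 FPKM for core and 38.8 FPKM for accessory subunits. NDUFB2 and NDUFA5, the accessory subunits lowest in FPKM, had implied lengths of 6.79 and 11.3 kb, and on average 1774 and 4075 counted fragments per library.

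**Figure D1:**
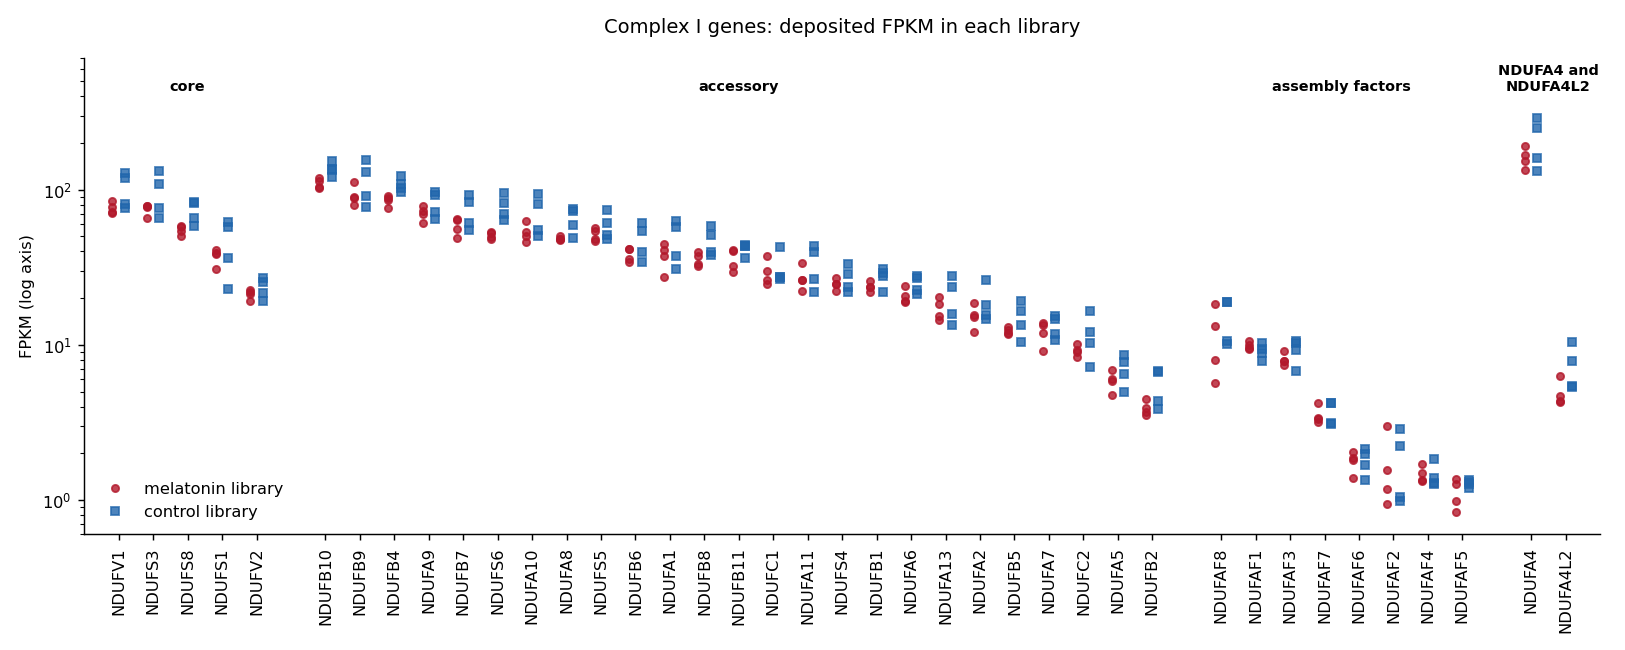
FPKM of 40 of the 41 genes (log axis) in each melatonin library (circles, left) and each control library (squares, right), by role and in order of mean level. Assembly factors sit lowest, with a median of 2.69 FPKM, and in many subunits the control libraries form a high and a low pair while the melatonin libraries lie close together.

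The comparison of melatonin with control asks what daily oral melatonin does to the muscle transcriptome. Of the 41 genes, 40 had a negative log2 fold change (melatonin over control), beside 50.2% of all tested genes. Their median was -0.36, against 0.00 over all tested genes, with a range from -0.68 for NDUFS6 to 0.05 for NDUFAF1. None of the 41 was called after adjustment: in edgeR's quasi-likelihood test 0 of 41 were called at an adjusted p under 0.05, beside 0% of all tested genes, with adjusted p values between 0.440 and 0.925. DESeq2 also called 0 of 41, beside 0.662% of all tested genes. At an unadjusted p under 0.05 in edgeR, 11 of 41 were lower, beside 3.84% of all tested genes, and 0 were higher, beside 6.67%. DESeq2 also had 11 of 41 lower at an unadjusted p under 0.05, beside 4.69% of all tested genes. The 11 in edgeR are the core subunits NDUFV1 and NDUFS8, the accessory subunits NDUFS6, NDUFB8, NDUFB4, NDUFB2, NDUFA8, NDUFA6, NDUFB7 and NDUFB10, and NDUFA4L2.

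The count of 11 depended on single libraries. It was 5, 10, 4 and 27 without control replicates 1 to 4 in turn, beside 2.74%, 2.99%, 3.21% and 4.64% of all tested genes lower in the same fits. Without melatonin replicates 1 to 4 in turn it was 5, 10, 6 and 11, beside 3.21%, 2.64%, 1.95% and 8.04%. Without melatonin replicates 1 and 3 together it was 0, beside 2.02%. The median of the 41 was then -0.25, beside -0.016 for all tested genes, with 38 of 41 below 0, beside 5167 of 9821 tested genes. With libraries scaled to their totals only, as FPKM is, the count was 6, beside 1.72%. That scaling shifts the median of all tested genes to 0.09, and the median of the 41 was then -0.28. On log2(FPKM + 1) in limma the count was 5, beside 1.89%, with a median of -0.24 for the 41 and 0.06 for all tested genes.

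**Figure D2:**
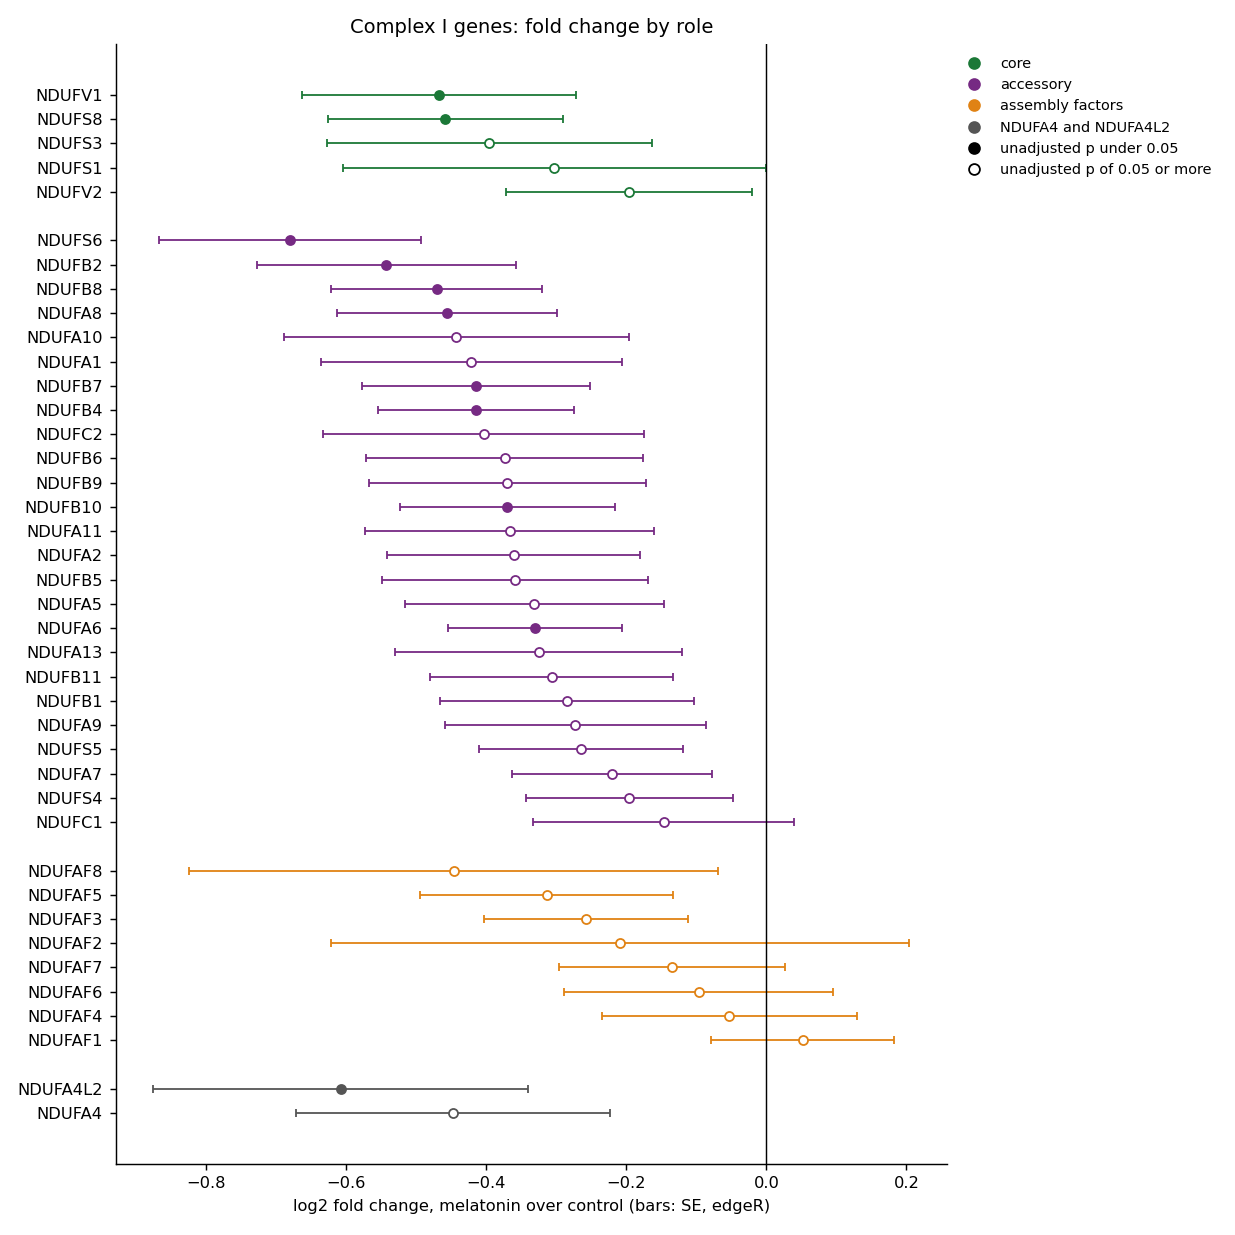
Log2 fold change, melatonin over control, of 40 of the 41 genes by role, with the standard error from edgeR as bars; filled points have an unadjusted p under 0.05. All core and accessory subunits drawn lie below 0, while the assembly factors run from -0.45 to 0.05.

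The 6 core subunits were all below control in mean level, and the median of their log2 fold changes was -0.35. It was -0.205 without control replicate 1, -0.23 without melatonin replicate 1 and -0.14, with 5 of 6 below 0, without melatonin replicates 1 and 3 together. NDUFV1, which binds NADH and the flavin that accepts its electrons (ENSSSCG00000012896, Sscrofa11.1 chromosome 2, 4958522 to 4964216), measured 71.9, 84.4, 77.1 and 70.3 FPKM in melatonin replicates 1 to 4, against 128, 76.0, 119 and 81.0 FPKM in control replicates 1 to 4. Control replicates 1 and 3 were well above every other library, and control replicates 2 and 4 lay within the melatonin range. Its log2 fold change was -0.47 ± 0.20 (SE; edgeR unadjusted p = 0.0390, adjusted p = 0.461). NDUFS8, an iron-sulphur subunit next to the ubiquinone site (ENSSSCG00000037455, chromosome 2, 4862589 to 4867393), lies 91.1 kb from NDUFV1. It measured 57.1, 57.9, 50.1 and 54.2 FPKM in melatonin libraries, against 82.4, 58.3, 83.3 and 65.7 FPKM in control libraries. Here the groups did not overlap, although control replicate 2 and melatonin replicate 2 nearly met (-0.46 ± 0.17, adjusted p = 0.448).

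NDUFS3, NDUFS1 and NDUFV2 overlapped between groups. NDUFS3, a core subunit of the peripheral arm, measured 66.1, 77.5, 78.9 and 78.8 FPKM after melatonin, against 132, 76.6, 108 and 65.6 FPKM in controls (-0.40 ± 0.23). Control replicates 1 and 3 were its highest libraries and control replicate 4 the lowest. NDUFS1, the largest iron-sulphur subunit, had the highest coefficient of variation of FPKM among control libraries of the core genes (40.7%), at 31.0, 38.7, 39.2 and 40.9 FPKM after melatonin, against 61.9, 36.4, 57.0 and 23.1 FPKM in controls (-0.30 ± 0.30). On the opposite strand it overlaps EEF1B2, a translation factor gene averaging 305 FPKM, and the use of strand in counting is unstated. NDUFV2, which holds an iron-sulphur cluster beside the flavin, had a fold change nearer to 0 than these, at 19.3, 21.3, 22.7 and 22.0 FPKM after melatonin, against 27.1, 21.6, 25.5 and 19.2 FPKM in controls (-0.20 ± 0.18). NDUFS7, named in the description only (ENSSSCG00000024144), carries the last iron-sulphur cluster before ubiquinone. It measured 25.8, 27.6, 26.9 and 29.3 FPKM after melatonin, against 47.6, 28.7, 44.4 and 28.9 FPKM in controls (-0.50 ± 0.21, adjusted p = 0.461).

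The 25 accessory subunits were also all below control in mean level. The median of their log2 fold changes was -0.37. Lower at an unadjusted p under 0.05 were 8 of them, beside 3.84% of all tested genes. NDUFS6, a zinc-binding subunit of the NADH-oxidising end (ENSSSCG00000017114, chromosome 16, 78993913 to 79000006), had the lowest fold change and the smallest p of the 41. It measured 52.8, 48.2, 49.3 and 53.5 FPKM in melatonin libraries, against 94.6, 82.0, 63.4 and 70.1 FPKM in control libraries. All melatonin values lay below all control values, and unlike in most subunits control replicates 2 and 4 were also clear of them (-0.68 ± 0.19, edgeR adjusted p = 0.440, DESeq2 adjusted p = 0.0789). NDUFB4, a small membrane-arm subunit, gave a similar layout, at 91.1, 85.7, 88.5 and 76.6 FPKM after melatonin, against 122, 109, 96.6 and 103 FPKM in controls (-0.42 ± 0.14). NDUFB10, another membrane-arm subunit and the accessory gene highest in FPKM, measured 104, 102, 114 and 118 FPKM after melatonin, against 153, 121, 134 and 136 FPKM in controls (-0.37 ± 0.15). NDUFS6, NDUFB4, NDUFB10 and NDUFS8 were the 4 of 41 genes whose FPKM did not overlap between groups with melatonin lower, beside 1.07% of all tested genes. On CPM (counts scaled to library size) after TMM scaling, the trimmed mean of M values by which edgeR levels libraries for its test, 5 of 41 did not overlap, beside 2.02% of all tested genes: NDUFS6, NDUFB4 and NDUFS8 again, with NDUFA8 and NDUFAF5 in place of NDUFB10. On FPKM, NDUFA12, a peripheral-arm subunit named in the description only, did not overlap either, at 20.1, 20.1, 21.6 and 19.96 FPKM after melatonin, against 27.8, 22.9, 28.8 and 22.7 FPKM in controls. On TMM-scaled CPM NDUFA12 overlapped. NDUFV3, also named in the description only, overlapped on FPKM but not on TMM-scaled CPM.

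NDUFB8, a membrane-arm subunit often used as a protein marker of assembled complex I, measured 37.5, 33.0, 39.6 and 32.1 FPKM after melatonin, against 58.2, 39.6, 51.0 and 37.7 FPKM in controls (-0.47 ± 0.15). Only melatonin replicate 3 reached into the control range, above control replicates 2 and 4 by a small margin. NDUFA8, a membrane-arm subunit on the intermembrane side, measured 48.0, 47.2, 49.9 and 48.4 FPKM after melatonin, against 74.8, 48.5, 72.6 and 58.9 FPKM in controls (-0.46 ± 0.16). The melatonin libraries lay within a narrow band and control replicate 2 fell inside it. NDUFB2, a small membrane-arm subunit, measured 3.94, 3.71, 4.46 and 3.55 FPKM after melatonin, against 6.68, 4.36, 6.73 and 3.86 FPKM in controls (-0.54 ± 0.18). NDUFA6, which anchors an acyl carrier protein to the peripheral arm, measured 20.8, 18.9, 23.8 and 19.2 FPKM after melatonin, against 27.9, 21.2, 27.0 and 22.4 FPKM in controls (-0.33 ± 0.12). NDUFB9, which anchors an acyl carrier protein in the membrane arm, measured 89.4, 88.9, 111 and 79.3 FPKM after melatonin, against 131, 77.2, 155 and 90.4 FPKM in controls (-0.37 ± 0.20). In NDUFB9 the lowest library was control replicate 2.

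The accessory subunits with fold changes nearest to 0 were NDUFC1 and NDUFS4. NDUFC1, a small membrane-arm subunit, measured 26.1, 29.9, 37.5 and 24.5 FPKM after melatonin, against 42.5, 27.3, 27.3 and 26.4 FPKM in controls (-0.15 ± 0.19). Only control replicate 1 stood high among its controls, and without that library the sign turned (0.02). NDUFC1 also overlaps MGARP, a mitochondrial protein gene at 5.80 FPKM, on the same strand. NDUFS4, a peripheral-arm subunit whose loss in mice causes a fatal encephalopathy, measured 24.6, 24.7, 27.0 and 22.4 FPKM after melatonin, against 33.4, 21.8, 28.7 and 23.7 FPKM in controls (-0.20 ± 0.15).

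The other 15 accessory subunits had log2 fold changes between -0.44 for NDUFA10, a kinase-related subunit of the membrane arm, and -0.22 for NDUFA7, a peripheral-arm subunit. Among them NDUFB7, a membrane-arm subunit on the intermembrane side, was lower at an unadjusted p of 0.0299, at 63.6, 55.4, 64.5 and 48.7 FPKM after melatonin, against 83.4, 60.9, 92.2 and 55.3 FPKM in controls. NDUFA10 measured 45.6, 53.4, 50.5 and 62.4 FPKM after melatonin, against 94.3, 54.6, 81.1 and 50.6 FPKM in controls, the pattern of 2 high control libraries seen in the core subunits. NDUFA9, which lies at the junction of the arms, measured 61.2, 69.1, 78.8 and 72.8 FPKM after melatonin, against 92.5, 71.7, 96.5 and 65.0 FPKM in controls (-0.27 ± 0.19). NDUFV3 and NDUFB3, named in the description only, gave -0.33 ± 0.13 and -0.31 ± 0.18.

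The subunits can also be read by arm. The 13 members of the peripheral arm had a median log2 fold change of -0.33, with 4 lower at an unadjusted p under 0.05, and the 18 of the membrane arm had a median of -0.37, with 6 lower. Within the membrane arm, the 10 genes with NDUFB names had a median of -0.37 and 5 of them were lower at that p. Of all tested genes, 3.84% were lower at that p. Single subunits had standard errors of 0.12 to 0.30, larger than the gap between these medians, and the difference between the arms was not tested.

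Of the 8 assembly factors, 7 had a negative fold change, beside 50.2% of all tested genes. An unadjusted p under 0.05 was reached by 0 of them in edgeR or DESeq2. In edgeR 3.84% of all tested genes were lower and 6.67% higher at that p, and in DESeq2 4.69% were lower. In a group of 8, a count of 0 is near these shares. The median log2 fold change of the 8 was -0.17. The difference of this median from those of the subunits was not tested. With libraries scaled to their totals only it was -0.075, beside 0.09 for all tested genes. NDUFAF1, a member of the membrane-arm assembly complex that also holds ECSIT and ACAD9, measured 9.47, 9.96, 10.7 and 9.42 FPKM after melatonin, against 10.2, 7.84, 9.34 and 8.92 FPKM in controls (0.05 ± 0.13). It was the one gene of the 41 above 0, and its sign turned without melatonin replicate 2 or 4 (-0.002 and -0.007). NDUFAF3 and NDUFAF4, which act together early in building the ubiquinone-binding part, measured 9.14, 7.45, 7.84 and 7.85 FPKM and 1.33, 1.497, 1.70 and 1.35 FPKM after melatonin. In controls NDUFAF3 measured 9.26, 6.81, 10.3 and 10.5 FPKM and NDUFAF4 measured 1.39, 1.29, 1.28 and 1.85 FPKM. Their log2 fold changes were -0.26 ± 0.15 and -0.05 ± 0.18. NDUFAF3 overlaps IMPDH2, a gene of guanine nucleotide synthesis at 38.0 FPKM, on the opposite strand.

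NDUFAF5, which hydroxylates an arginine of NDUFS7, measured 1.27, 0.981, 1.37 and 0.835 FPKM after melatonin, against 1.20, 1.35, 1.30 and 1.27 FPKM in controls (-0.31 ± 0.18). NDUFAF8, which stabilises NDUFAF5, had the assembly fold change furthest from 0 with a wide error, at 18.4, 13.2, 5.72 and 7.93 FPKM after melatonin, against 18.9, 10.7, 19.0 and 10.2 FPKM in controls (-0.45 ± 0.38). Its short gene model carried 75 to 242 fragments per library. NDUFAF2, which binds a late assembly intermediate, had 37 to 107 fragments per library and measured 3.02, 1.17, 1.55 and 0.939 FPKM after melatonin, against 2.88, 0.980, 1.05 and 2.24 FPKM in controls (-0.21 ± 0.41). In NDUFAF8 and NDUFAF2 the values of the groups overlapped widely. NDUFAF6, an early-acting factor, measured 1.81, 1.87, 2.05 and 1.38 FPKM after melatonin, against 2.13, 1.68, 1.98 and 1.35 FPKM in controls (-0.10 ± 0.19). NDUFAF7, a mitochondrial protein arginine methyltransferase, measured 4.21, 3.16, 3.32 and 3.40 FPKM after melatonin, against 4.22, 3.10, 4.23 and 3.14 FPKM in controls (-0.13 ± 0.16). A list of 12 assembly factors with other names matched 11 genes, 10 of them past the level filter. They had a median of -0.04, or 0.04 with library totals only, where all tested genes had 0.09. Below 0 were 8 of 10, beside 50.2% of all tested genes. With library totals only, 4 of 10 were below 0, beside 3690 of 9821 tested genes. At an unadjusted p under 0.05 in edgeR 0 of 10 were lower, beside 3.84% of all tested genes, and 0 higher, beside 6.67%. ECSIT, a member of the same membrane-arm assembly complex as NDUFAF1, had the smallest p of these 10 factors, at 48.7, 57.5, 55.3 and 65.0 FPKM after melatonin, against 91.0, 65.9, 78.7 and 58.2 FPKM in controls (-0.43 ± 0.21). TMEM126A, which assists a proton-pumping section of the membrane arm, and ACAD9, a partner of ECSIT, gave -0.32 ± 0.21 and -0.21 ± 0.15. NDUFAB1, the mitochondrial acyl carrier protein held by NDUFA6 and NDUFB9, measured 27.4, 31.0, 30.0 and 30.2 FPKM after melatonin, against 47.0, 33.2, 37.9 and 22.3 FPKM in controls (-0.31 ± 0.23).

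NDUFA4, the gene highest in FPKM among the 41, measured 168, 153, 192 and 135 FPKM after melatonin, against 291, 161, 249 and 132 FPKM in controls (-0.45 ± 0.22, adjusted p = 0.507). Control replicates 1 and 3 were again the highest and control replicate 4 the lowest of all. RefSeq lists an NDUFA4 pseudogene on chromosome 13 beside the coding gene on chromosome 9, so reads may be shared between them. NDUFA4L2, known as a target of hypoxia-inducible factor, measured 4.34, 4.28, 4.66 and 6.32 FPKM after melatonin, against 10.5, 5.33, 7.87 and 5.47 FPKM in controls (-0.61 ± 0.27, adjusted p = 0.473). Only melatonin replicate 4 reached the lower controls. It overlaps SHMT2, a mitochondrial folate enzyme gene at 5.33 FPKM, on the opposite strand.

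Across libraries the sum of all 41 genes was 1521, 1531, 1671 and 1453 FPKM in melatonin replicates 1 to 4, against 2388, 1606, 2161 and 1519 FPKM in control replicates 1 to 4. The melatonin libraries thus averaged 1544 ± 91.6 FPKM and the control libraries 1919 ± 423 FPKM (SD, n = 4 each). Control replicates 1 and 3 stood above the other 6 libraries, and control replicates 2 and 4 lay among the melatonin libraries. Control replicate 1 held the highest FPKM for 27 of the 41 genes and control replicate 3 for 9, while the lowest was in melatonin replicate 4 for 15 and in control replicate 4 for 11. The coefficient of variation of FPKM was smaller among melatonin than among control libraries in 36 of 41 genes, with medians of 11.4% in melatonin and 22.8% in control libraries. Over all tested genes it was smaller among melatonin libraries in 35.6%, with medians of 23.5% in melatonin and 19.1% in control libraries. In 34 genes of respiratory complexes II to V it was smaller in 33, with medians of 12.4% in melatonin and 26.3% in control libraries. In 21 genes of the TCA cycle it was smaller in 16, with medians of 12.1% and 22.9%. On TMM-scaled log2 CPM, the SD was smaller among melatonin libraries in 29 of 41, beside 40.8% of all tested genes. That SD was smaller in 30 of 34 genes of complexes II to V and in 11 of 21 of the TCA cycle.

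Which melatonin libraries lay lowest depended on the scale. On TMM-scaled log2 CPM, the median of the 41 genes set against the control mean lay at -0.51, -0.21, -0.36 and -0.22 in melatonin replicates 1 to 4, against 0.27, -0.03, 0.13 and -0.36 in control replicates 1 to 4. On log2(FPKM + 1) the same medians were -0.23, -0.26, -0.08 and -0.33 after melatonin, against 0.30, -0.21, 0.16 and -0.27 in controls. TMM factors were 1.18 and 1.19 in melatonin replicates 1 and 3, and 0.851 to 1.02 in the other libraries. On both scales control replicate 4 overlapped the melatonin libraries, and on log2(FPKM + 1) control replicate 2 did as well. Core subunits swung more between libraries than accessory ones on the TMM scale, from -0.71 in melatonin replicate 1 to 0.34 in control replicate 1, against -0.51 and 0.27 for accessory subunits. The median of the assembly factors spanned -0.255 in melatonin replicate 3 to 0.133 in control replicate 1. Gene by gene, their median SD was 0.202 among melatonin and 0.215 among control libraries. For accessory subunits it was 0.160 and 0.314.

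**Figure D3:**
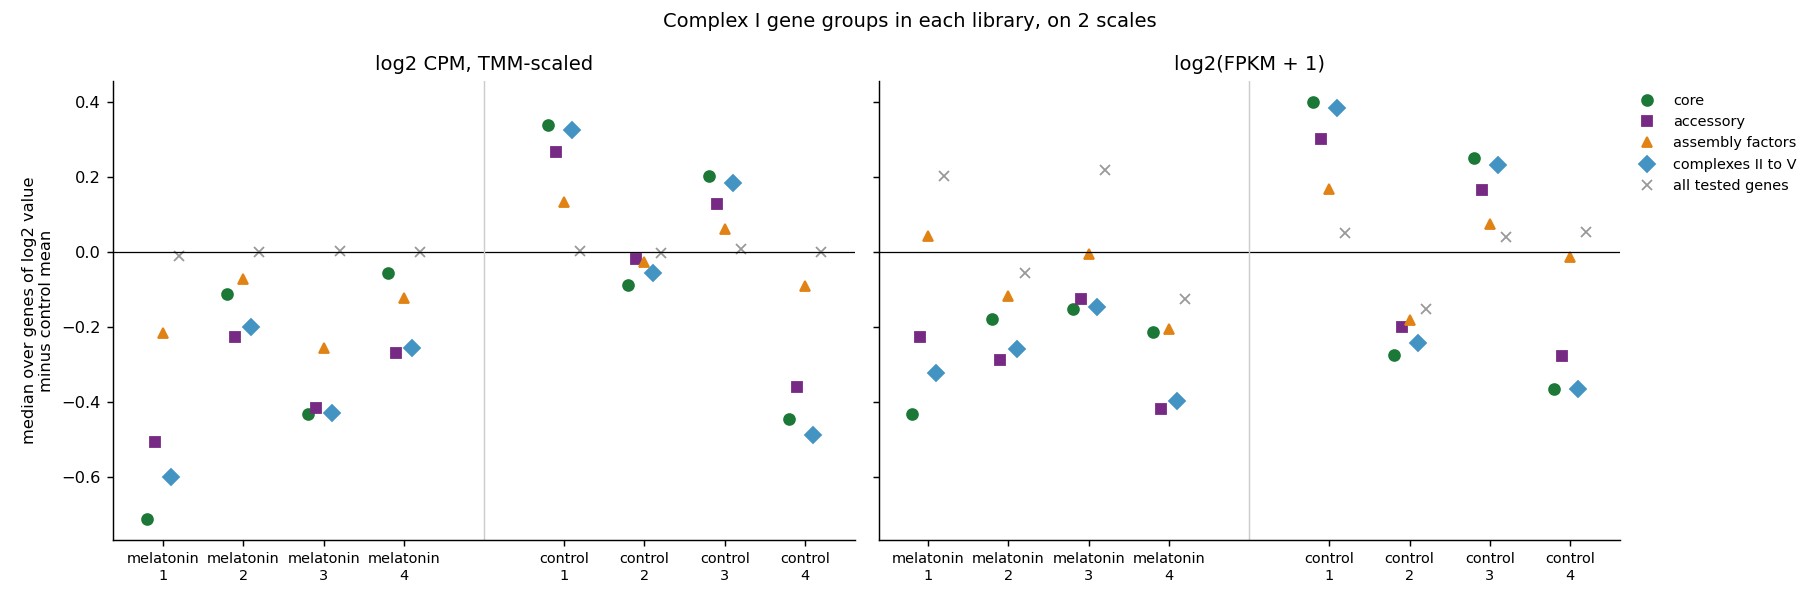
Median over the genes of a group of the log2 value minus the control mean, for each melatonin library (left) and control library (right), on TMM-scaled log2 CPM and on log2(FPKM + 1). Control replicates 1 and 3 are high and control replicate 4 is low for core and accessory subunits on both scales. On log2(FPKM + 1) control replicate 2 is low for them as well. The median of the assembly factors moves less.

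The genes differed in how closely their 8 values followed those of the other members. The median Pearson correlation of a gene with the other 40, on TMM-scaled log2 CPM, was highest for NDUFB5, a membrane-arm subunit (0.87), and lowest for the assembly factors NDUFAF2 (-0.12), NDUFAF4 (-0.05) and NDUFAF5 (0.30). The assembly factors NDUFAF3 (0.353), NDUFAF1 (0.365) and NDUFAF8 (0.493) also lay below every subunit, of which NDUFC1 was lowest (0.59). Only NDUFAF6 (0.67) and NDUFAF7 (0.68) lay among the subunits, above NDUFS6 at 0.64. These are descriptions over 8 libraries that all members share. The 41 genes lie on 18 chromosomes, 8 of them on chromosome 2.

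The proportions among the groups of genes moved little. Core over accessory subunits was 38.4 ± 3.30% of summed FPKM after melatonin and 38.2 ± 3.81% in controls (SD, n = 4 each). The 39 complex I genes without NDUFA4 and NDUFA4L2 summed to 51.0 ± 1.35% of 34 genes of complexes II to V after melatonin and 50.4 ± 2.26% in controls. Their sum over that of 21 genes of the TCA cycle was 80.8 ± 5.05% after melatonin and 83.5 ± 1.05% in controls. Assembly factors over accessory subunits was 4.02 ± 0.772% after melatonin and 3.59 ± 0.300% in controls. All these differences are smaller than the larger of the SDs beside them. The genes of complexes II to V had a median log2 fold change of -0.41, against -0.36 for the 41. Of these genes, 34 of 34 were below 0, beside 50.2% of all tested genes. At an unadjusted p under 0.05 in edgeR, 11 (32%) were lower, beside 27% of the 41 and 3.84% of all tested genes. The sums of complexes II to V in FPKM were 2554, 2772, 2885 and 2592 after melatonin, against 4370, 2800, 3850 and 2609 in controls, so the same control libraries were high.

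Other cell and fibre markers differed between the libraries as well. The 10 slow fibre markers, genes of oxidative slow fibres, summed to 6028, 781, 6808 and 3343 FPKM in melatonin replicates 1 to 4, against 11170, 2390, 6714 and 3546 FPKM in control replicates 1 to 4. Control replicate 1 was highest for both slow fibre markers and complex I. Melatonin replicate 3 and control replicate 3 came next in slow fibre markers, at 6808 and 6714 FPKM. Control replicate 3 and melatonin replicate 3 came next in complex I, at 2161 and 1671 FPKM. Melatonin replicate 2 was lowest in slow fibre markers and melatonin replicate 4 in complex I. HBB, the beta globin gene of red blood cells, measured 38.1, 39.8, 97.9 and 37.2 FPKM after melatonin, against 119, 41.3, 163 and 40.7 FPKM in controls, with control replicates 1 and 3 highest. ALAS2, an enzyme of red cell haem synthesis, lay between 0.309 and 1.45 FPKM after melatonin and between 0.557 and 1.97 FPKM in controls. SLC4A1, the red cell anion exchanger, was at 0 in every library except control replicate 2. The 11 matched fibroblast and matrix markers summed to 739 to 8905 FPKM after melatonin and 576 to 1081 FPKM in controls, and melatonin replicates 1 and 3, which have the high TMM factors, held 8905 and 2724 FPKM. The 6 adipocyte markers summed to 25.4 to 256 FPKM after melatonin and 31.2 to 157 FPKM in controls, with leptin (LEP) at 0 in melatonin replicates 3 and 4 and in control replicates 1, 2 and 4. The 6 endothelial markers summed to 41.2 to 59.5 FPKM after melatonin and 40.3 to 58.8 FPKM in controls. The 6 macrophage markers summed to 11.2 to 46.1 FPKM after melatonin and 13.8 to 31.2 FPKM in controls. The part of fibre type, blood and matrix content in the complex I values was not tested. In bulk muscle, fewer oxidative fibres and less complex I RNA per fibre cannot be told apart.

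**Figure D4:**
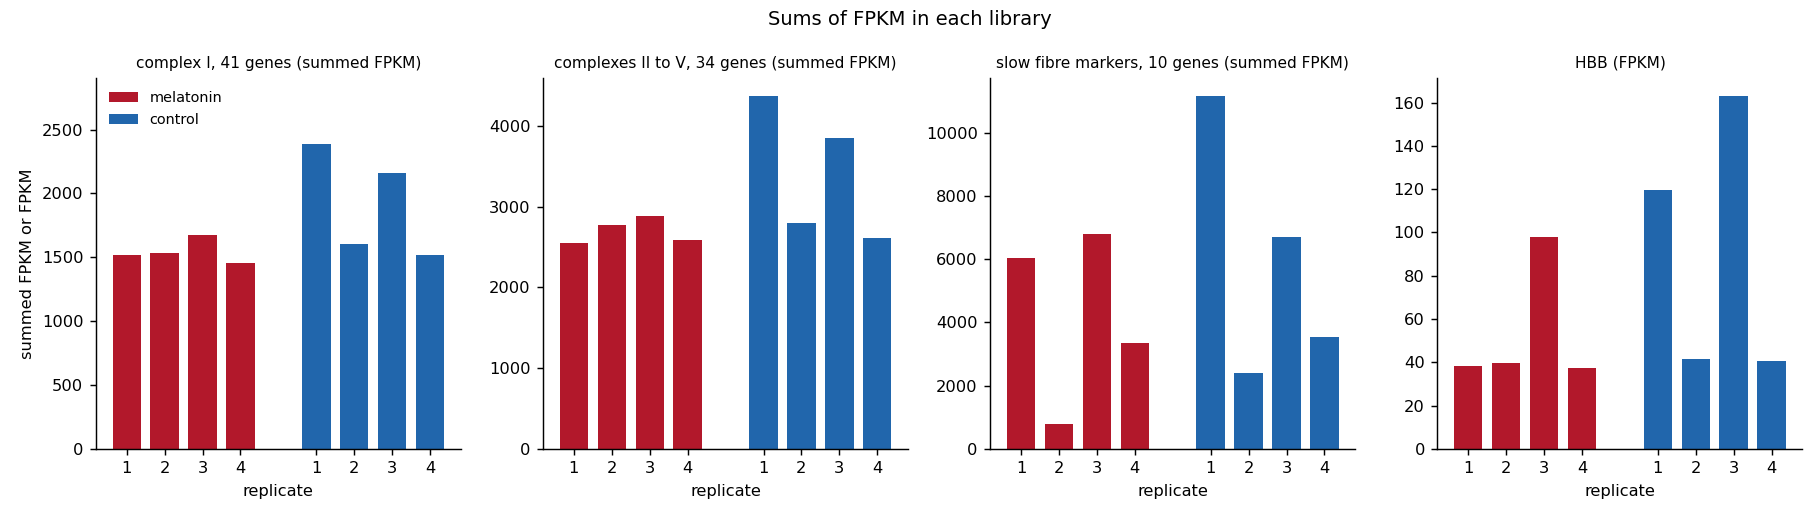
Summed FPKM of the 41 complex I genes, of 34 genes of complexes II to V and of 10 slow fibre markers, and FPKM of HBB, in melatonin replicates 1 to 4 (left bars) and control replicates 1 to 4 (right bars). Control replicates 1 and 3 are the highest bars for complex I (2388 and 2161 FPKM), complexes II to V and HBB. In slow fibre markers control replicate 1 is highest, followed by melatonin replicate 3 and control replicate 3.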

How the data were processed

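Per the labels' protocols, poly(A) RNA was made into dUTP-based stranded libraries and sequenced as paired ends. The deposited table pairs, for each gene and library, raw counts with FPKM, per the file headers. The count columns deposited by the authors hold unscaled whole numbers. The deposited FPKM values are scaled by gene length and library. The submitters' processing notes list the tools FastQC, StringTie and DESeq2 and the genome build Sscrofa11.1, without roles. The sources used here do not give the aligner, the annotation release or the use of strand. Of the columns of values, 0 were left over.

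Genes with a mean of at least 1 FPKM were tested in edgeR 4.0.16 (R 4.3.3) on the counts, with TMM scaling, the legacy quasi-likelihood F test, no covariate and Benjamini-Hochberg adjustment over 9821 genes. The standard error of a fold change is its size over the root of F. The test was checked on simulated counts whose planted changes were larger than the median change of the 41, so its power at that size was not checked. Alternatives used DESeq2 1.42.0, limma 3.58.1, other scalings, filters and sets of libraries. Implied length is count over FPKM and table total, and is approximate. The members, lists and rules were chosen with earlier results of these data known. Of the members, 1 is not reported here by name and enters only counts, sums and medians. Values in every library are given for named core genes, assembly factors, NDUFA4, NDUFA4L2, and accessory genes by smallest p (6), highest FPKM (2) and fold change nearest to 0 (2), and ECSIT, the listed assembly factor of smallest p. NDUFA12, NDUFB7, NDUFA10, NDUFA9 and NDUFAB1 are given outside this rule, chosen after their values were seen. No library was a duplicate (lowest chi-square over degrees of freedom between libraries, 53.2). Of the 41 members, 14 overlap another gene, 2 on the same strand. Plots were drawn with Matplotlib 3.10.9 in Python 3.11.15.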

Additional observations from a re-analysis of the deposited data

Results flagged for a closer look

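Among 120 groups of 4 libraries examined, 5 held a library whose gap to its nearest neighbour, as a share of the group's range, was above Dixon's critical value, which chance gives in about 1 in 20 groups. NDUFS3 was low in melatonin replicate 1, at 66.1 FPKM beside 77.5 to 78.9 FPKM in the other melatonin libraries. NDUFA12 was high in melatonin replicate 3, at 21.6 FPKM beside 19.96 to 20.1 FPKM. NDUFB11, a membrane-arm subunit on chromosome X, was low in control replicate 4, at 36.2 FPKM beside 43.5 to 43.8 FPKM in the other controls. NDUFC1 was high in control replicate 1, at 42.5 FPKM beside 26.4 to 27.3 FPKM. The sum of the 3 matched red cell markers was high in melatonin replicate 3, at 99.4 FPKM beside 37.8 to 40.8 FPKM in the other melatonin libraries.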

How the results depend on the processing

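The median log2 fold changes of all 41 genes, of core, of accessory subunits and of assembly factors stayed below 0 under every alternative run, and the first 3 moved by less than the SD between libraries. Over single libraries left out they ranged from -0.479 to -0.256 for the 41, from -0.525 to -0.205 for core, from -0.481 to -0.279 for accessory subunits and from -0.218 to -0.086 for assembly factors. The assembly median was -0.075 with library totals only, -0.068 on log2(FPKM + 0.1) and -0.051 on log2(FPKM + 1), where the median of all tested genes was 0.092, 0.076 and 0.063. The count of complex I genes lower at an unadjusted p under 0.05 was 11, beside 3.84% of all tested genes. The count was 6 with library totals only, beside 1.72%. In limma it was 5 on log2(FPKM + 1), beside 1.89%, and 1 on log2(FPKM + 0.1), beside 1.71%. Without melatonin replicates 1 and 3 it was 0, beside 2.02%. With single libraries left out it was 4 to 27, beside 1.95% to 8.04%. It was 14 with the 4 genes named in the description and 10 without NDUFA4 and NDUFA4L2, both chosen after seeing the data, as was scaling to library totals. With the replicate number as a block it was 7, beside 4.59% of all tested genes. Same-numbered libraries deviated together with correlations of 0.181, 0.069, 0.169 and -0.027, and not every library correlated best with its own number, so the numbers were not taken as pairs. Over the whole table edgeR called 0 genes (1032 at an unadjusted p under 0.05), 0 to 15 with single libraries left out, the 15 without melatonin replicate 4, and DESeq2 called 65. Of 923 gene values under alternatives 12 changed sign and 0 passed the adjusted threshold. NDUFAF4 was 0.020 with library totals only, 0.027 on log2(FPKM + 0.1), 0.015 on log2(FPKM + 1) and 0.086 without melatonin replicates 1 and 3, and -0.121 to 0.053 with single libraries left out, above 0 without control replicate 4 and without melatonin replicate 1 (0.043). With single libraries left out NDUFAF1 ranged from -0.007 to 0.129, negative also without melatonin replicate 2 (-0.002), NDUFAF2 from -0.562 to 0.094 and NDUFC1 from -0.234 to 0.016, both positive without control replicate 1. NDUFAF6 was 0.000 on log2(FPKM + 0.1), and NDUFV2 was 0.003 without melatonin replicates 1 and 3. The cause was not tested. Low counts limit NDUFAF2 and NDUFAF8.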
